A study of Sus scrofa with 14 samples.

Results

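Ion channels and the calcium and sodium pumps were examined in the uterus of 14 pregnant sows, all F2 animals of an Iberian x Meishan cross. The members were the genes whose symbol in the array annotation begins with KCN, CACN, CLCN, CLIC, TRPV, TRPC, TRPM, RYR, ITPR, ATP1A, ATP1B, ATP2A or ATP2B, or with SCN and a digit. KCNMB1 was left out by this rule, and each gene was represented by its probe set with the highest mean. This gave 46 members of 6765 genes with a single symbol on the array, and they were carried by 78 probe sets. They were 21 potassium channel genes, 5 auxiliary subunits of voltage-gated calcium channels, 5 chloride channel or CLIC genes, 5 calcium release channels, 3 TRP-named genes and 7 pump genes. One of the TRP-named genes, TRPC4AP, is a partner protein of a TRP channel and not a channel. No gene named SCN with a digit or ATP1A was among those with a single symbol, so the members hold no pore subunit of a voltage-gated sodium channel and no catalytic subunit of the sodium pump.

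Tissue was taken between days 30 and 32 of the fifth pregnancy, frozen at slaughter and hybridised to the Affymetrix porcine array, 1 array per sow. The labels class 5 sows as highly prolific and 9 as lowly prolific. All sows shared the cross, the parity and the stage of pregnancy, and the labels name no treatment. They call each sow a biological replicate, and they do not say which layer of the uterine wall was sampled. Levels are log2 RMA values, and differences are high minus low prolificacy on that log2 scale.

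Ion channels let ions pass a membrane down their gradient, and pumps use ATP to restore the gradient. In myometrium, the smooth muscle wall of the uterus, calcium entry through voltage-gated channels and release from internal stores drive contraction, and potassium channels damp excitability. In uterine epithelium, the sodium pump and calcium channels of the luminal membrane carry salt and calcium between mother and lumen.

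Bulk tissue mixes these cell types, and fewer cells of a type cannot be told apart from less RNA per cell. ACTG2, the enteric smooth muscle actin, was at 11.98, 8.26, 5.92, 9.34 and 6.57 in the high prolificacy arrays 1 to 5, and between 12.85 and 13.79 in the low ones. KRT8, a keratin of simple epithelia, was between 10.95 and 12.33 in high and between 7.76 and 9.91 in low prolificacy. Neither gene's groups overlapped. Of the 9 smooth muscle markers on the array all 9 fell, and their summed log2 level was 70.6 to 103.6 in high and 110.4 to 119.5 in low prolificacy. Of 9 epithelium markers 7 rose and 0 fell, with sums of 86.0 to 96.6 and 57.1 to 80.0. High 1 was the high prolificacy array richest in smooth muscle markers, low 7 and low 9 were poorest in KRT8, and high 4 was highest in the trophoblast markers. Those trophoblast markers (PAG6, TTR and AFP) were not called in limma, a linear model fitted to every probe set with adjustment of p over all of them.

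Of the 46 members, 5 passed an adjusted p of 0.05 in limma. ITPR3 and ATP1B1 were higher, and CACNA2D1, RYR3 and KCNE2 were lower, in high prolificacy. This was 10.9% of the members, beside 10.8% of all 6765 genes, of which 5.34% were higher and 5.42% lower. The share of called members was near the background. At an unadjusted p under 0.05 there were 12 members, against 26.8% of all genes. The median difference of the members was -0.0060, and that of all genes was 0.073. In ITPR3 and RYR3 the groups did not overlap, which held for 3.78% of all genes. Another 4 members (ATP2A2, TRPV6, ATP1B3 and RYR2) had an adjusted p under 0.10.

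Many members were dim. The array medians lay between 5.72 and 5.84, and 27 members had a mean under the lowest of them, while 17 lay over the highest. Of these 17, 3 were called (17.6%), against 12.6% of the 4965 genes over that level. ITPR3 and ATP1B1 were the 2 higher ones, beside 5.88% of those genes, and CACNA2D1 the 1 lower one, beside 6.75%. No detection calls were used. Besides the brightest, 22 members had 32 further probe sets, of which 17 had the sign of the brightest and 3 were called, beside 7.85% of all probe sets. In 32 of the 41 members not called, the 95% confidence interval of the difference lay between -1 and 1.

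**Figure D1:**
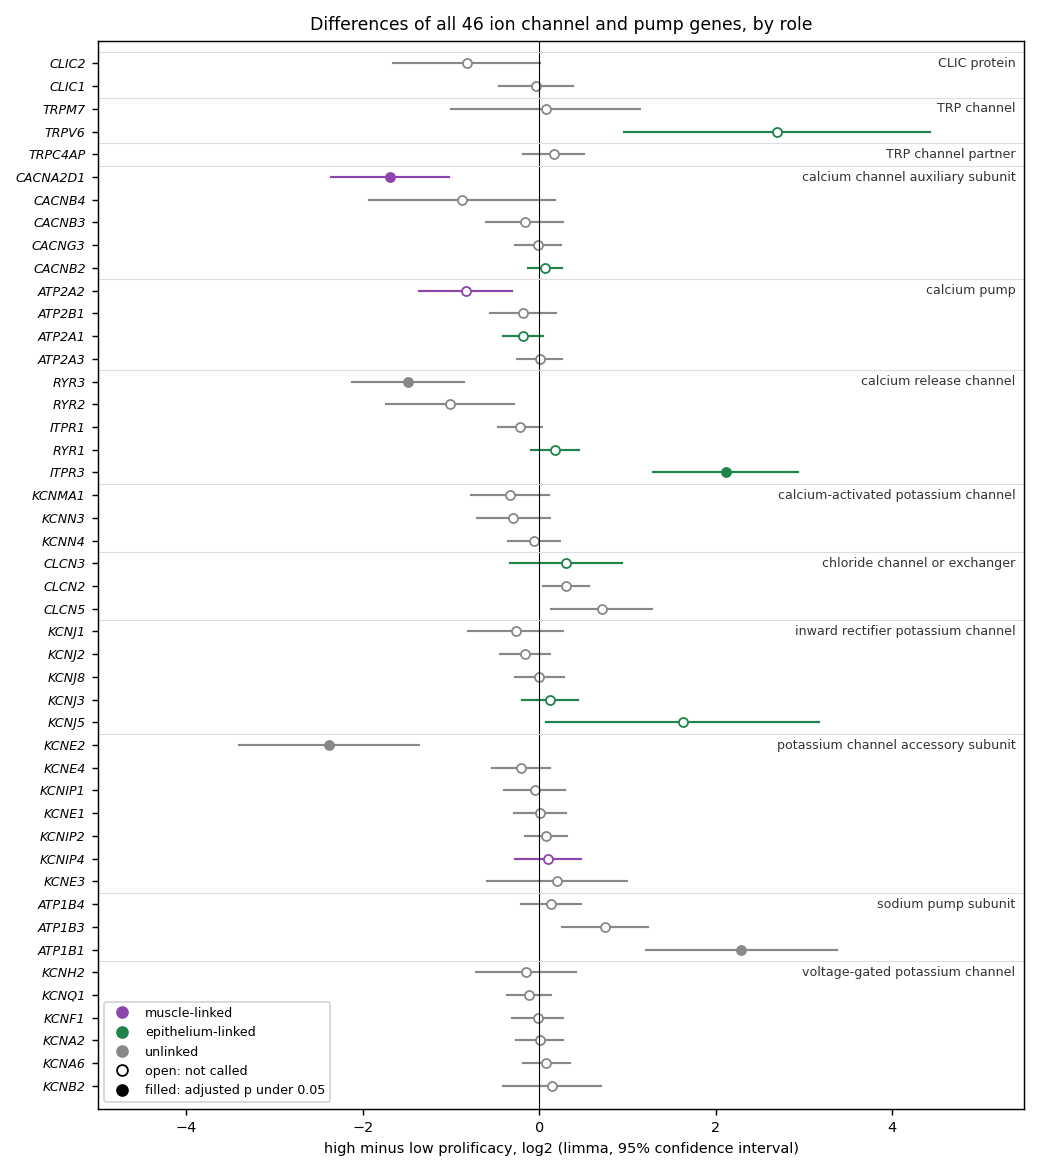
High minus low prolificacy on the log2 scale (x axis) for each of the 46 members (y axis, grouped by role), as limma estimates with 95% confidence intervals. Filled points passed an adjusted p of 0.05, and colours mark the within-group relation to ACTG2 and KRT8. ITPR3 (2.11) and ATP1B1 (2.29) lie to the right, CACNA2D1 (-1.69), RYR3 (-1.49) and KCNE2 (-2.38) to the left, and most voltage-gated and accessory potassium channel genes lie close to 0.

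Among the calcium release channels of the endoplasmic reticulum, 1 of 5 rose and 1 fell. ITPR3 encodes the type 3 inositol trisphosphate receptor, which releases stored calcium and is frequent in epithelia. Its level was 7.29, 9.46, 9.36, 7.51 and 9.25 in high 1 to 5. In low prolificacy it ranged from 5.46 (low 7) over a median of 6.49 to 7.11 (low 8). All high arrays lay above all low arrays, with high 1 and high 4 nearest to them. The difference was 2.11 ± 0.39 (SE; 4.33-fold; limma adjusted p = 0.0045). The other ITPR3 probe set was dim (mean 3.44) and differed by 0.037.

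RYR3, the ryanodine receptor of type 3, opens in response to calcium and amplifies its release. It was at 4.32, 4.11, 4.31, 4.19 and 4.19 in high 1 to 5, and at 4.57 to 6.83 with a median of 5.83 in low prolificacy. The high arrays were nearly equal and all lay below the low arrays, of which low 7 was highest. The difference was -1.49 ± 0.30 (SE; limma adjusted p = 0.0075). The high prolificacy values are near the floor of the array, which limits what the fold says. Of 3 dimmer RYR3 probe sets none was called. The brightest of them differed by -0.68 and the others by 0.051 and -0.14.

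RYR2, the ryanodine receptor known from heart muscle, was at 4.67, 4.66, 4.85, 5.17 and 4.22 in high 1 to 5. Low 6 to low 9 were at 6.62, 6.19, 6.84 and 6.34, and low 1 to low 5 at 5.47, 5.07, 4.94, 5.16 and 4.90. The spread lay mainly within the low group, and high 4 overlapped it. The difference was -1.01 ± 0.34 (SE; limma adjusted p = 0.088), and it did not pass. The other RYR2 probe sets were dim (means 3.235 and 3.36) and differed by 0.019 and 0.0575. ITPR1, the type 1 receptor, differed by -0.22 (95% confidence interval -0.47 to 0.030), and RYR1, the skeletal muscle type, by 0.18 (-0.091 to 0.45).

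**Figure D2:**
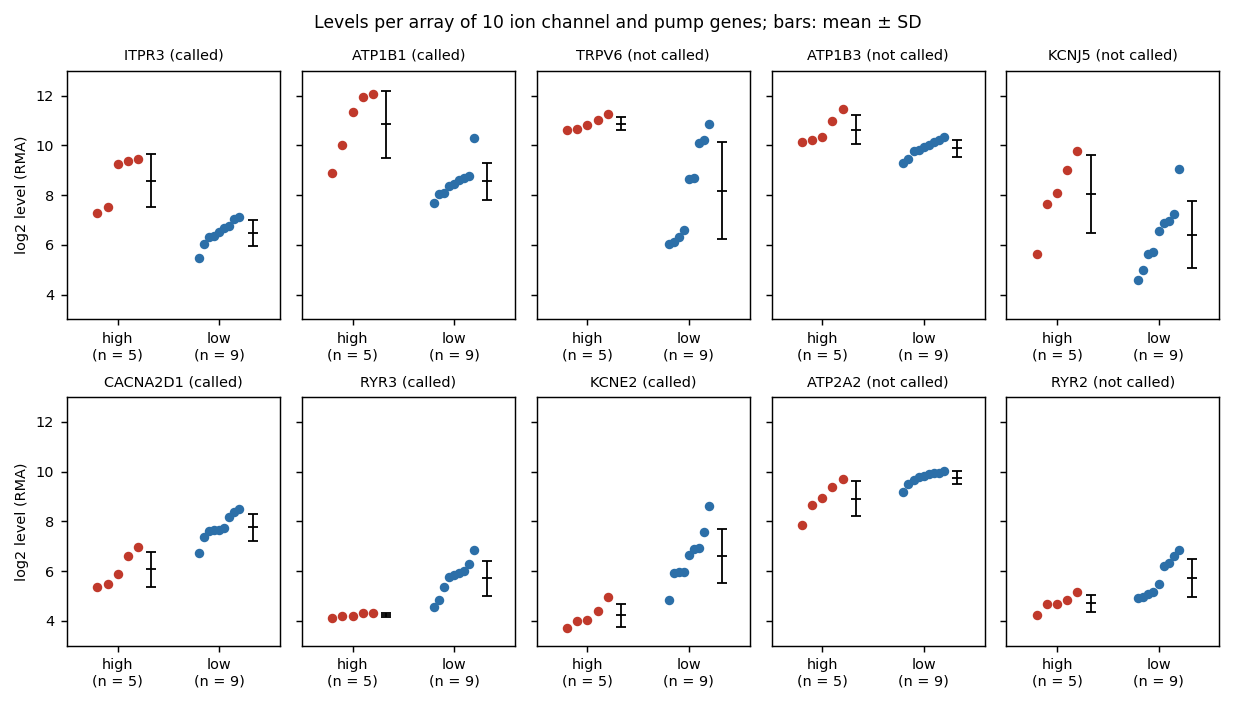
Log2 RMA level (y axis) of 10 members in each array of the high (red, n = 5) and low (blue, n = 9) prolificacy groups, sorted within a group, with the mean ± SD beside the points. The groups do not overlap in ITPR3 and RYR3, while TRPV6 is tight in high (10.60 to 11.26) and spread from 6.04 to 10.85 in low prolificacy.

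Calcium entry was represented by auxiliary subunits and by TRP channels, and not by a pore-forming CACNA1 subunit. CACNA2D1 encodes the alpha2-delta subunit, which brings voltage-gated calcium channels to the cell surface. Its level was 6.98, 5.90, 5.48, 6.59 and 5.36 in high 1 to 5. The low arrays ranged from 6.71 (low 3) over a median of 7.66 to 8.50 (low 9). Only high 1 reached into the range of the low arrays, and there only above low 3. The difference was -1.69 ± 0.31 (SE; 3.23-fold lower; limma adjusted p = 0.0049). Of the 5 auxiliary subunits it was the member that passed.

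CACNB4, a beta subunit of the same channels, was at 4.34 to 5.26 in high prolificacy. Low 1 to low 5 lay between 4.30 and 5.02, and low 6 to low 9 at 6.12, 6.89, 6.13 and 7.52. The 4 low arrays that were highest in CACNB4 were also the 4 highest in RYR2. The CACNB4 difference was -0.87 (95% confidence interval -1.92 to 0.18; limma adjusted p = 0.34). CACNB3, CACNB2 and CACNG3 differed by -0.16, 0.063 and -0.015.

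TRPV6 is the calcium-selective channel through which calcium enters epithelial cells from the lumen. Its levels in high 1 to 5 were 10.66, 10.60, 11.02, 10.83 and 11.26. In low 1 to 9 they were 10.23, 8.70, 6.04, 10.11, 10.85, 6.58, 6.13, 8.65 and 6.32. The high arrays were alike, and the low arrays reached from the level of the high ones to far below it. Their SDs were 0.27 (n = 5) and 1.95 (n = 9). The difference was 2.69 ± 0.81 (SE; limma adjusted p = 0.057), so the call was missed. It was made without low 1, low 4 or low 5, with the mean of a gene's probe sets (adjusted p = 0.040) and with the 12000 brightest probe sets (0.034). TRPV6 has 1 probe set, so its difference was unchanged in the last-named fits, where p was adjusted over fewer tests. With array weights the TRPV6 difference was 1.92 (adjusted p = 0.155) and without low 7 and low 9 it was 2.14 (0.149), and leaving out single arrays gave adjusted p from 0.023 to 0.132. With ACTG2 and KRT8 as covariates it was 0.56.

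S100G, a small calcium-binding protein that shuttles calcium through the cytosol, was set beside TRPV6 after the values of both had been seen. It was at 7.84, 5.28, 3.60, 7.39, 8.68, 3.45, 3.74, 7.05 and 4.76 in low 1 to 9 and between 9.37 and 10.53 in high prolificacy. The 4 low arrays lowest in TRPV6 (low 3, 6, 7 and 9) were also the 4 lowest in S100G. ATP2B1, the plasma membrane pump that exports calcium from such cells, did not share this spread, with levels of 8.10 to 9.14 in high and 8.24 to 9.02 in low prolificacy. Its difference was -0.18 (95% confidence interval -0.56 to 0.19).

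TRPM7, a channel for magnesium and calcium fused to a kinase, differed by 0.073 (95% confidence interval -0.99 to 1.14). The other 12 arrays lay between 6.94 and 8.43, and high 5 was at 5.72 and low 3 at 5.07. A dimmer TRPM7 probe set differed by -0.15. TRPC4AP differed by 0.16 (95% confidence interval -0.18 to 0.51).

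The other calcium pumps were those of the sarcoplasmic and endoplasmic reticulum. ATP2A2 encodes SERCA2, the form of cardiac and smooth muscle and of most other cells. Its brightest probe set was at 9.72, 8.95, 8.65, 9.40 and 7.86 in high 1 to 5, and at 9.20 to 10.04 with a median of 9.80 in low prolificacy. High 2, 3 and 5 lay below all low arrays, and high 1 and 4 within their range. The difference was -0.83 ± 0.25 (SE; limma adjusted p = 0.052). It passed without high 1 (difference -1.03, adjusted p = 0.0115), high 4 or low 3, with array weights (adjusted p = 0.0088), after subtracting array medians (0.045) and with the 12000 brightest probe sets (0.038). Its adjusted p was 0.145 without high 3 and 0.149 without low 7 and low 9, and with ACTG2 and KRT8 as covariates the difference was 0.75, of the opposite sign.

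The 4 ATP2A2 probe sets did not run together. The others differed by 0.46, 0.21 and 0.49, opposite in sign to the brightest, and none of them was called. The mean of all 4 probe sets differed by 0.082, and it includes the dimmest, whose 6 highest arrays were those highest in the trophoblast marker PAG6. Whether that probe set measures ATP2A2 was not tested. The dimmest of them (mean 5.21) spanned 3.73 to 8.48 within the high group alone. ATP2A1, the skeletal muscle form, and ATP2A3 had means of 4.46 and 4.04 and differed by -0.18 and 0.0081.

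**Figure D3:**
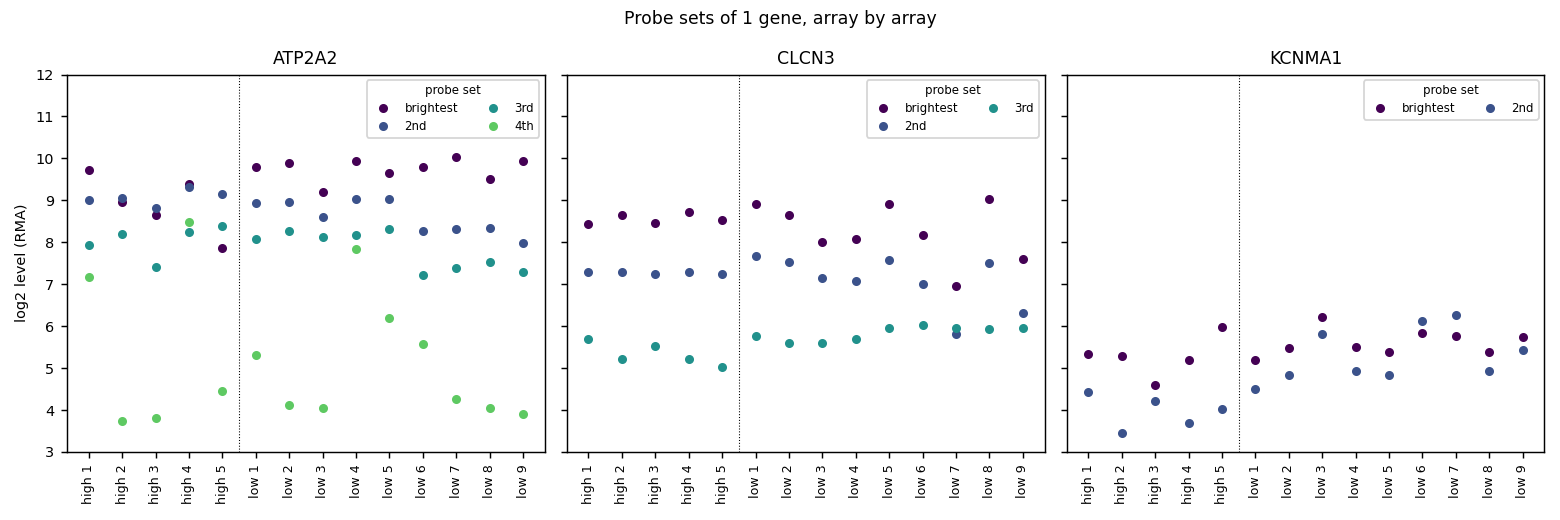
Log2 RMA level (y axis) of every probe set of ATP2A2, CLCN3 and KCNMA1 in each array (x axis; the dotted line parts the high from the low prolificacy arrays, whose numbers carry no order). The brightest ATP2A2 probe set is lower in high 2, 3 and 5 (7.86 to 8.95) than in the low arrays, the dimmest is highest in high 4 (8.48), and the second KCNMA1 probe set is lower in high than in low prolificacy.

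The sodium pump exchanges sodium for potassium and sets the gradients on which other transport runs, and its beta subunits bring the catalytic subunit to the membrane. Of the 3 genes named ATP1B, 1 rose. ATP1B1 was at 9.998, 11.93, 12.06, 8.90 and 11.32 in high 1 to 5. The low arrays ranged from 7.67 over a median of 8.43 to 8.78, except low 8 at 10.30. High 1 and high 4 lay below low 8, and the other high arrays above all low arrays. The difference was 2.29 ± 0.51 (SE; 4.89-fold; limma adjusted p = 0.013). A second ATP1B1 probe set rose as well, by 2.70. Without high 3 the difference was 1.99 and missed the threshold (adjusted p = 0.0505).

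ATP1B3, another beta subunit, was at 10.34, 11.47, 10.99, 10.23 and 10.12 in high 1 to 5 and at 9.30 to 10.33 in low prolificacy. Its difference was 0.75 ± 0.23 (SE; limma adjusted p = 0.062), which passed without high 5 (adjusted p = 0.049), after cyclic loess (0.044), with array weights (0.015), with the 12000 brightest probe sets (0.047) and with the mean of a gene's probe sets (0.046). ATP1B3 has 1 probe set, so its difference was unchanged in the last-named fits, where p was adjusted over fewer tests. The adjusted p was 0.177 without high 2 and also without high 3, and 0.168 without low 7 and low 9. ATP1B4, which was dim (mean 3.71), differed by 0.13.

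Among the 21 potassium channel genes, taken by their brightest probe sets, KCNE2 alone passed the test. It encodes a single-pass accessory subunit that alters the gating of KCNQ1 and KCNH2 channels. It was at 4.95, 4.02, 3.99, 3.72 and 4.39 in high 1 to 5. In low 1 to 9 it was at 6.93, 5.96, 6.90, 5.94, 6.65, 8.63, 7.55, 5.98 and 4.84. The groups overlapped in that high 1 lay above low 9, and low 6 was highest. The difference was -2.38 ± 0.48 (SE; 5.21-fold lower; limma adjusted p = 0.0077). The other KCNE2 probe set was dim (mean 2.97) and differed by -0.24. The high prolificacy levels were low on this array's scale, so the fold has no firm base.

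KCNQ1 and KCNH2, pore subunits that KCNE proteins join, differed by -0.12 (95% confidence interval -0.37 to 0.13) and -0.15 (-0.72 to 0.42). The remaining accessory subunits, KCNE1, KCNE3, KCNE4, KCNIP1, KCNIP2 and KCNIP4, had differences between -0.21 and 0.20. The 6 voltage-gated pore subunits differed by -0.15 to 0.14 and had means of 3.79 to 5.77.

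KCNJ5, a subunit of G-protein-gated inward rectifiers, was at 7.66, 8.99, 8.07, 5.63 and 9.76 in high 1 to 5. It ranged from 4.59 (low 7) over a median of 6.54 to 9.04 (low 3) in low prolificacy. The groups overlapped broadly. The difference was 1.63 (95% confidence interval 0.078 to 3.18; limma adjusted p = 0.21). The other KCNJ5 probe set (mean 5.00) differed by 0.024. KCNJ1, KCNJ2, KCNJ3 and KCNJ8, inward rectifiers too, differed by -0.27 to 0.12.

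KCNMA1 is the pore of the large-conductance calcium-activated potassium channel, whose smooth muscle beta subunit is KCNMB1. Its brighter probe set was at 5.33, 5.28, 4.60, 5.20 and 5.98 in high 1 to 5 and at 5.18 to 6.22 in low prolificacy, a difference of -0.33 (95% confidence interval -0.77 to 0.11). The dimmer one (mean 4.82) fell by 1.33 on the log2 scale and was called in limma (adjusted p = 0.013), and its groups did not overlap. With the mean of a gene's probe sets KCNMA1 differed by -0.83 and was called too (limma adjusted p = 0.024). KCNMB1 itself lay between 3.93 and 9.04 in high and between 10.14 and 11.56 in low prolificacy. The small- and intermediate-conductance channels KCNN3 and KCNN4 differed by -0.29 and -0.060.

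No chloride channel or CLIC gene passed. CLCN5, a chloride-proton exchanger of endosomes, differed by 0.71 (limma adjusted p = 0.13) and was at 5.83 in high 4, the highest of its 14 values. CLCN2, a chloride channel of the cell surface, differed by 0.31 (95% confidence interval 0.045 to 0.57; limma adjusted p = 0.16).

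CLCN3, another exchanger of endosomes, was at 8.43 to 8.73 in high prolificacy and fell within the low group to 6.95 in low 7 and 7.61 in low 9. Its difference was 0.30 (95% confidence interval -0.33 to 0.94). Of the other CLCN3 probe sets 1, the dimmest (mean 5.65), was called lower, by -0.49, and the other differed by 0.20. CLIC1, an abundant intracellular CLIC protein, was at 9.05 to 9.60 in high and 8.59 to 10.12 in low prolificacy, and CLIC2 differed by -0.82 (95% confidence interval -1.66 to 0.014).

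The members were then split by how they varied within the groups. Each gene and the 2 reference genes had their group means removed, and Pearson's r with ACTG2 and with KRT8 was taken over the 14 arrays. A member was called muscle-linked where r with ACTG2 was at least 0.5 and above that with KRT8, epithelium-linked in the mirrored case, and otherwise unlinked. By this measure 3 members were muscle-linked (6.52%, against 7.60% of all genes) and 8 epithelium-linked (17.4%, against 14.9%). The remaining 35 were unlinked, and both shares were near those of all genes. ACTG2 and KRT8 themselves had an r of -0.46. Within groups ACTG2 varied mainly among the high arrays (SD 2.41, against 0.27 in the low arrays). Its r over the 14 arrays therefore rests mostly on the high group.

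The muscle-linked members were ATP2A2 (r = 0.79), KCNIP4 (0.76) and CACNA2D1 (0.67). Their differences between the groups, which the split does not use, were -0.83, 0.098 and -1.69. Of all 514 muscle-linked genes 34.2% were called lower and 0.195% higher, with a median of -0.65. KCNIP4, a calcium-binding partner of potassium channels, was at 4.01 in high 1 and at 2.78 to 3.23 elsewhere, and r was 0.34 without high 1 and high 3, the arrays farthest from the median of ACTG2. For ATP2A2 and CACNA2D1 it was then 0.89 and 0.54. In the 9 low arrays alone r with ACTG2 was 0.58 for ATP2A2, 0.68 for KCNIP4 and 0.29 for CACNA2D1, which was not muscle-linked there. The relation of ATP2A2 was taken for its brightest probe set alone, whose difference between the groups has the opposite sign to its other probe sets.

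The epithelium-linked members were ITPR3 (r with KRT8 = 0.79), KCNJ5 (0.74), CLCN3 (0.64), KCNJ3 (0.57), CACNB2 (0.56), TRPV6 (0.54), ATP2A1 (0.53) and RYR1 (0.51). Of these, ITPR3, KCNJ5, CLCN3 and TRPV6 had means over every array median, and the other 4 were dim. The differences of the 8 ran from -0.18 to 2.69 with a median of 0.24, and 7 were above 0. Over all 1007 epithelium-linked genes the median was 0.43, with 20.6% called higher and 0 called lower. Without low 7 and low 9 the r was 0.84 for ITPR3 and 0.65 for KCNJ5, but 0.14 for TRPV6, 0.020 for CACNB2 and -0.078 for CLCN3. These last 3 relations thus rested on those arrays.

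Next to the limit of 0.5 stood RYR1 (0.51) inside and KCNN4 (0.45) outside for KRT8, and CACNA2D1 (0.67) inside and CLIC2 (0.48) outside for ACTG2. Of the called members, ATP1B1 was unlinked, with r of -0.60 with ACTG2 and 0.29 with KRT8. RYR3 had r of 0.054 and -0.55, and KCNE2 of 0.20 and 0.0055. Without low 7 and low 9 the r with KRT8 was 0.075 for RYR3, so its relation rested on those arrays, and -0.33 for KCNE2. For ATP1B1, r with KRT8 was 0.64 without low 7 and low 9, but in the 9 low arrays alone r was -0.060 and Spearman's rho -0.38.

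**Figure D4:**
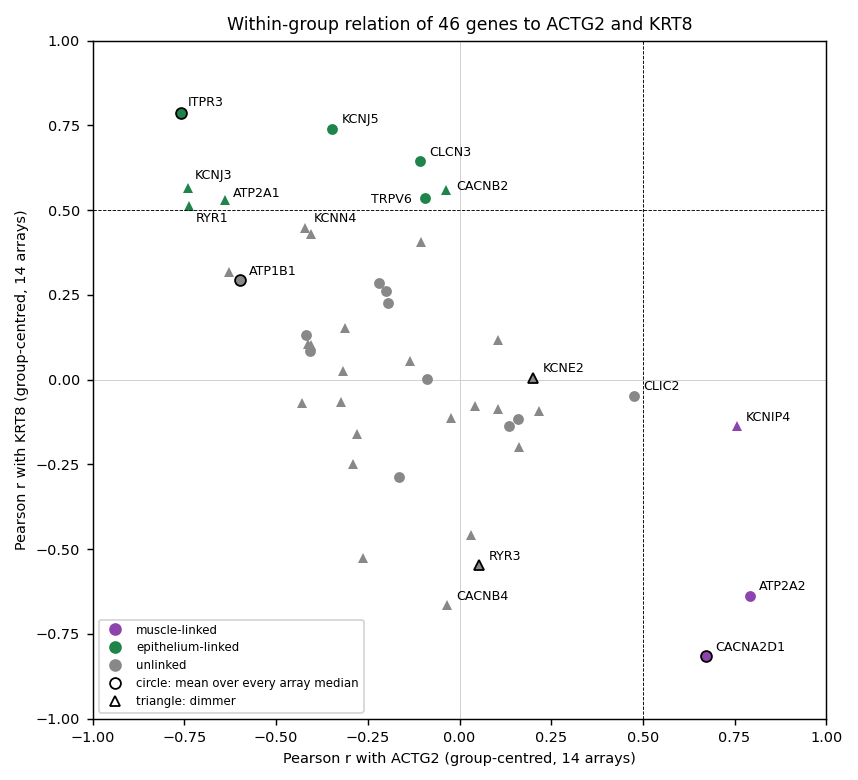
Pearson r with ACTG2 (x axis) and with KRT8 (y axis) for each member over 14 arrays after removal of group means, with dashed lines at 0.5. Black rims mark members with an adjusted p under 0.05 between groups. ITPR3 stands at the upper left (-0.76 and 0.79) and CACNA2D1 at the lower right (0.67 and -0.82), while KCNE2 lies near the centre.

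The relations were tested for each of the 6765 genes by 100000 permutations of arrays within groups, 2 references being used and p adjusted over all genes for each. No member passed for either reference. The smallest p that these permutations can give is 1e-05. For KRT8, 0.222% of genes passed. CACNA2D1 had r = -0.82 (permutation p = 0.00024, adjusted 0.054) and Spearman's rho = -0.71 (p = 0.0050, adjusted 0.14). ITPR3 had r = 0.79 (permutation p = 0.00040, adjusted 0.059) and rho = 0.67 (p = 0.0042, adjusted 0.13). In the 9 low arrays alone their r with KRT8 was -0.79 and 0.87, and without low 7 and low 9 the values over both groups were -0.81 and 0.84.

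For ACTG2, 0 of 6765 genes passed. ACTG2 set against itself had the smallest p and an adjusted p of 0.068, so a gene alone at that p could not pass. For Pearson's r the lowest permutation p of a member was 0.0048 (CACNA2D1, adjusted 0.29). ACTG2 varied mainly among the high arrays (SD 2.41, against 0.27 in the low arrays). The p of r therefore depends mostly on the order of those few arrays, which leaves little room for small values. That no member passed thus says little about its relation to ACTG2. At an unadjusted p under 0.05 there were 5 members, and 11.0% of all genes. ATP2A2 had r = 0.79 (permutation p = 0.042, adjusted 0.44) and rho = 0.88 (p = 0.00073, adjusted 0.15).

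**Figure D5:**
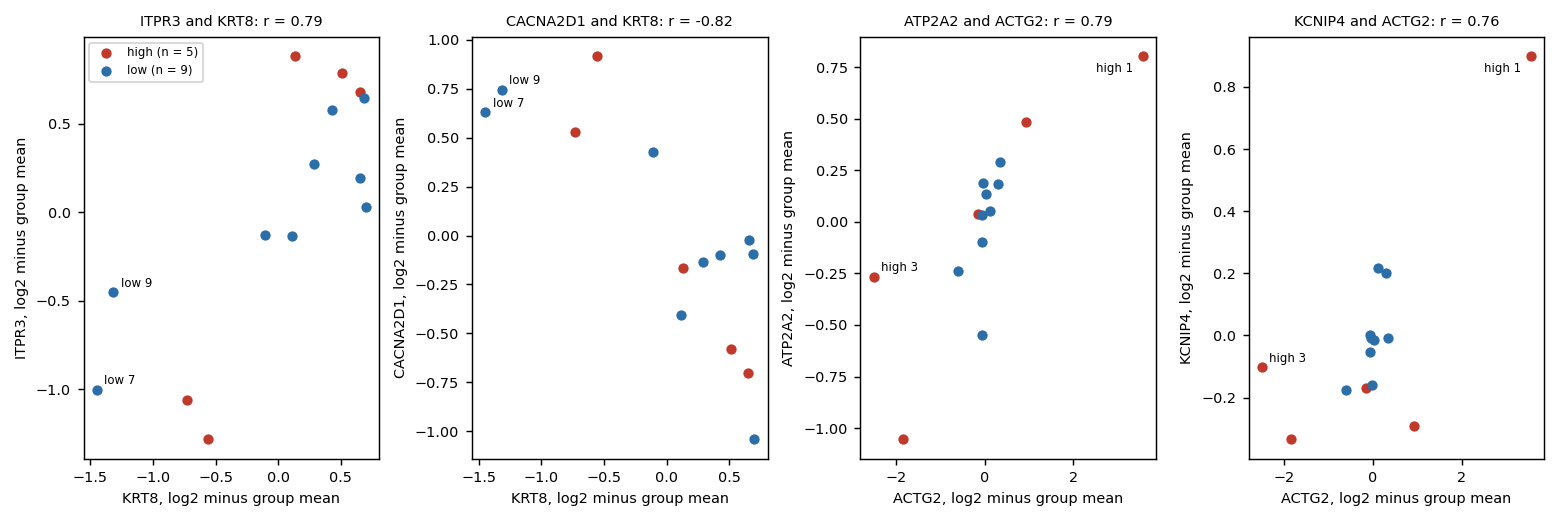
Log2 levels minus the group mean of 2 members against KRT8 and of another 2 against ACTG2, 1 point per array, high prolificacy in red (n = 5) and low in blue (n = 9). ITPR3 rises (r = 0.79) and CACNA2D1 falls (r = -0.82) with KRT8 in both groups, whereas KCNIP4 against ACTG2 has high 1 far from the other arrays (r = 0.76, and 0.34 without high 1 and high 3).

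Of 67 genes listed as regulators or partners of these channels and pumps, 38 were on the array, and 6 rose and 9 fell in limma, beside 10.8% of all genes called. Their median difference was 0.048. Some of them, S100G and KCNMB1 among these, were known from earlier results to differ when the list was written, so the count is no independent evidence. FXYD3, an epithelial regulator of the sodium pump, rose 9.29-fold. SCNN1A and SCNN1B, subunits of the epithelial sodium channel, rose 1.89- and 4.00-fold, and S100G rose 17.2-fold. In low prolificacy SCNN1A lay between 3.39 and 4.08 and S100G reached down to 3.45, while the 25th percentiles of the arrays were 4.02 to 4.19, so the folds of SCNN1A and S100G have no firm base.

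Among the partners that fell were PLN, CAMK2G, CAV1 and KCNMB1. PLN, phospholamban, which restrains SERCA pumps in muscle, was at 8.43 in high 1, within the range of the low arrays, and between 3.95 and 5.65 in the other high arrays. The drop in PLN was 16.6-fold, with an adjusted p of 0.0024 in limma. CAMK2G, a calcium-activated kinase, fell by 2.07 and CAV1, a scaffold of membrane caveolae, by 2.40. Of these 8 named partners, KCNMB1, CAMK2G, PLN and CAV1 were muscle-linked by the same measure and FXYD3, SCNN1B and S100G epithelium-linked, while SCNN1A was unlinked. Without high 1 and high 3 the r with ACTG2 was -0.29 for KCNMB1, 0.031 for PLN, 0.20 for CAMK2G and 0.82 for CAV1, and in the low arrays alone it was 0.050, 0.22, 0.41 and 0.25. Without low 7 and low 9 the r with KRT8 was 0.54 for FXYD3, 0.87 for SCNN1B and 0.30 for S100G.

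With ACTG2 and KRT8 as covariates, limma called 0 of 46 members and 0 of 23999 probe sets, with 3 members at an unadjusted p under 0.05. These 2 levels explained 81.1% of the variance of group, so little is left to estimate. The difference of KCNE2 was then -1.89 (95% confidence interval -4.38 to 0.59) and that of RYR3 -0.78 (-2.07 to 0.52). ATP1B1 differed by 0.13 (-2.05 to 2.30), ITPR3 by -0.59 (-1.51 to 0.34) and CACNA2D1 by 0.38 (-0.46 to 1.23). The point estimates of ITPR3 and CACNA2D1 thus changed sign, with intervals that included 0.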

How the data were processed

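The authors deposited log2 levels per probe set. The submitters' processing notes name RMA, without its settings or version. RMA equalises probe intensity distributions between arrays, so a shift shared by most transcripts would be removed. Of 24123 probe sets, 124 controls were left out and 23999 tested. In the platform annotation, which can be old, 10069 had 1 symbol, 198 several and 13732 none. The gene numbers of 43 of 46 members matched the RefSeq table for Sscrofa11.1, where 0 symbols differed. No detection calls, array batches or sequences were used.

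High minus low was fitted with limma 3.58.1 in R 4.3.3 (lmFit, eBayes, no covariate, two-sided, Benjamini-Hochberg over all probe sets). On simulated data (20 draws of 23999 probe sets) it recovered 12.8% of changes of 0.5 on the log2 scale, 63.1% of 1, 93.2% of 2 and 99.6% of 4, and 5.29% of its calls were false. The simulated noise was normal, independent between probe sets and equal in both groups, and few probe sets were changed. In the data the spread of genes such as TRPV6 differed between the groups, so these shares may not carry over. Relations used group-centred values and two-sided permutations within groups (Python 3.11.15, numpy 2.4.6). The number of arrays limits the precision.

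Members and lists were chosen with earlier results of these data known. Named were all called members (up to 12 each way), a fixed set of 15 on the array, the 3 with the highest r to each reference, those next to the limit of 0.5, and the 4 called partners each way with the smallest p. This gave 23 members and 8 partners. Others are named by role, with values. Replicate numbers did not pair the sows (correlations of deviations -0.25 to 0.42).

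Alternatives were 12000 bright probe sets, cyclic loess, median subtraction, array weights, covariates, the replicate block, trend and robust eBayes, other thresholds, the mean of a gene's probe sets, other limits and measures for the split, and leaving out each array. After seeing the data, 3 were added: each list mean alone as covariate, and low 7 and low 9 left out together.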

Additional observations from a re-analysis of the deposited data

Results flagged for a closer look

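Values far from the rest of their group were looked for in 31 named genes and both groups, and 5 of 62 sets of arrays held one, where chance gives about 1 in 20. ATP1B1 was at 10.30 in low 8, against 8.78 in the next low array. TRPM7 was at 5.07 in low 3, and the next low array was at 6.94. KCNIP4 was at 4.01 in high 1, with the other high arrays at most at 3.01, and its r with ACTG2 was 0.76 over all arrays, 0.34 without high 1 and high 3 and 0.68 in the low arrays alone. CACNB2 was at 2.99 in high 2, below 3.18 to 3.22 in the other high arrays, a small gap in a dim probe set. CAV1 was at 11.45 in low 3, against 12.08 to 12.58 in the other low arrays.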

How the results depend on the processing

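The 5 member calls were 4 without high 3 to 7 without low 5 when 1 array was left out, the 15 partner calls 11 to 16, the muscle-linked members 3 to 4 and the epithelium-linked 6 to 9. Over all 23999 probe sets, 944 were called without high 3 and 1917 without low 5, beside 1885 with every array. ATP1B1 was the called member that lost its call in such a fit (without high 3), and the others kept theirs in all 14. With the 12000 brightest probe sets 6 of 17 members tested were called, beside 1699 of all 12000 probe sets. RYR3 and KCNE2 were too dim to be tested there. With the mean of a gene's probe sets, where p was adjusted over 6765 genes, 8 members and 839 of all genes were called. At an adjusted p of 0.10 there were 9 members, beside 2925 of 23999 probe sets. With the replicate block 1 member (KCNE2) and 0 partners were called, among 35 probe sets in all, and 1 of 5 high arrays correlated best with its own number. That block compares the high arrays with low 1 to low 5 alone, since replicate numbers 6 to 9 exist in the low group only. Fewer arrays thus enter the difference in that fit. In each of the 4 fits with covariates, 0 members and 0 partners were called. ITPR3 was then -0.59 with ACTG2 and KRT8, -0.45 with both list means and -0.36 with the smooth muscle mean alone. In the same order CACNA2D1 was 0.38, 0.13 and 0.041, SCNN1B -0.76, -0.55 and -0.52, and CAV1 0.46, 0.30 and 0.27. With ACTG2 and KRT8, FXYD3 was -0.14 and SCNN1A -0.046, and with both list means CAMK2G was 0.0025. With the epithelium mean alone, ITPR3 was 0.68 and CACNA2D1 -0.47. Of 18 named members not called, 14 changed sign in at least 1 alternative. In the 9 low arrays alone 13 members were muscle-linked, 2 of them shared with the 3 above (all but CACNA2D1), and 5 epithelium-linked. Over all genes the shares also rose in that setting, to 15.2% muscle-linked and 18.4% epithelium-linked. With list means in place of the reference genes 5 members were epithelium-linked (14.15% of all genes), and with a limit of 0.6 there were 3 (8.51% of all genes). Levels near the array floor, as those of RYR3 and KCNE2 in high prolificacy, limit what a fold says.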

Other observations

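The dimmest ATP2A2 probe set had a profile unlike those of the other 3, seen after the data were examined. It was at 8.48 in high 4, 7.84 in low 4, 7.16 in high 1, 6.19 in low 5, 5.59 in low 6 and 5.31 in low 1, and between 3.73 and 4.44 in the other 8 arrays. PAG6, a pregnancy-associated glycoprotein of trophoblast, was at 11.43, 10.89, 10.74, 8.74, 8.03 and 7.18 in those 6 arrays, in the same order, and at most at 6.21 in the rest. The relation was not tested.

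Low 6 to low 9 had the 4 highest levels of RYR2 and of CACNB4 in the data, at 6.19 or more and 6.12 or more, against at most 5.47 and 5.26 in the other arrays. The labels give no batch for these arrays. The second ATP2A2 probe set was at 7.98 to 8.33 in low 6 to low 9 and at 8.61 to 9.31 in the other arrays.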
